A study of Homo sapiens with 12 samples.

Results

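HOX genes encode homeodomain transcription factors that sit in 4 clusters, HOXA on chromosome 7, HOXB on chromosome 17, HOXC on chromosome 12 and HOXD on chromosome 2. They were read here in the human bladder carcinoma lines RT112 and 5637, both established cell lines, on whole-transcript arrays. A member is a gene of the form HOXA to HOXD and a number that is the single symbol of an array row. Where a gene had several rows the brightest over 9 arrays would have been taken, but each member had 1 row. The rule gave 25 genes among 22465 genes with a single symbol: HOXA2 alone from the A cluster, 8 of the B cluster, 9 of the C cluster and 7 of the D cluster. The reference gene table lists 39 HOX genes. Of the 14 that are not members, HOXA3, HOXA6, HOXA9, HOXB3, HOXB4, HOXD3 and HOXD4 stood on rows that carry several symbols. The others were not analysed here.

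The study compared each line with and without CM272, an inhibitor of both the histone methyltransferase G9a and DNA methyltransferases, added at its IC50, the concentration that gives half-maximal inhibition. The arrays used are 3 of RT112 with CM272, 3 of untreated RT112 and 3 of 5637 with CM272. The deposited rows of the 3 untreated 5637 arrays are displaced and entered no comparison: the mean of these arrays correlated with that of treated 5637 at r = 0.0274 over 67528 transcript-cluster rows, against 0.966 over the 2995 other rows. No effect of CM272 on HOX genes of 5637 was therefore computed. Replicates are numbered in the labels, with no word on whether each was its own culture. The p-values therefore speak of array-to-array spread, which may be technical. In bulk RNA, fewer expressing cells and less RNA per cell cannot be told apart.

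In the embryo, HOX genes are switched on in the order in which they lie in the cluster, from the 3' end (low numbers, anterior body) to the 5' end (high numbers, posterior body). Polycomb complexes keep silent HOX clusters marked with methylated lysine 27 of histone H3, and trithorax-group complexes built on MLL proteins keep active ones open. TALE homeodomain proteins of the PBX, MEIS and PKNOX families bind DNA together with HOX proteins, and retinoic acid induces the anterior genes. G9a places methyl groups on lysine 9 of histone H3, and the CpG islands of HOX clusters are frequent targets of DNA methylation in tumours. The members were grouped by number as anterior (1 to 3, 4 members), central (4 to 8, 9 members) and posterior (9 to 13, 12 members).

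Levels are log2 values of the deposited scale. The epithelial character of the lines was plain: the 11 measured epithelial and urothelial markers had a median of 11.3 in untreated RT112, 10.5 in treated RT112 and 10.3 in treated 5637. Of these markers, 11, 10 and 9 lay above the brightest of the 23 background probe rows of the array (means of 6.43, 5.90 and 5.66). Of 7 leukocyte markers 1 lay above it in each group, and of 7 stromal and endothelial markers 1, 1 and 0 did. KRT13 was at 4.50 in treated 5637.

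Most HOX members were dim. Their median percentile among all genes was 42.8 in untreated RT112, 39.1 in treated RT112 and 40.7 in treated 5637. Only 5, 4 and 5 of the 25 members lay above the brightest background row, against 35.8%, 36.3% and 40.6% of all genes. The members above it were HOXB6, HOXB7, HOXB9, HOXC6 and HOXC13 in untreated RT112. In treated RT112 they were HOXB7, HOXB9, HOXC13 and HOXD11, and in treated 5637 HOXB6, HOXB7, HOXB9, HOXD10 and HOXD11. For the other members a level cannot be told from background by this measure. A difference that starts or ends at such a level may be understated. The measure is a strict one, since the brightest row is one whose probes hold only 3 or 4 G and C bases. Above the highest of the GC-rich rows (20 to 25 G and C bases) stood 15, 16 and 17 members. Brightness also depends on the probes of a row, so a percentile is no order of transcript amounts between genes.

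**Figure D1:**
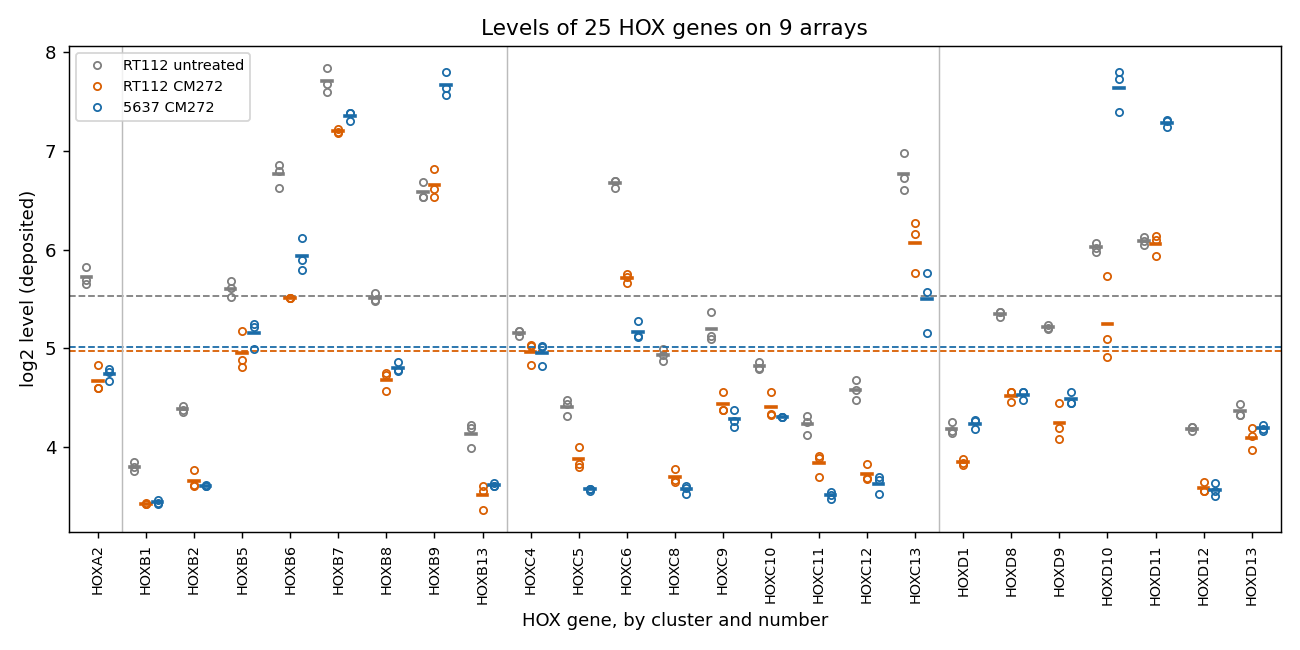
Log2 levels (deposited scale, vertical axis) of the 25 HOX members, ordered by cluster and number, on the 9 arrays. Points are single arrays, short bars are group means (n = 3), dashed lines are the median of all 22465 genes in each group and grey vertical lines part the clusters; HOXD10, HOXD11 and HOXB9 of treated 5637 stand above both RT112 groups.

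HOXB7, whose product acts in the trunk region, was the brightest member of the B cluster in both RT112 groups. Its levels were 7.84, 7.59 and 7.68 in untreated RT112, 7.19, 7.22 and 7.18 in treated RT112, and 7.39, 7.30 and 7.38 in treated 5637. The treated RT112 arrays lay below the other 6, and no group overlapped another. HOXB9, a gene of the thoracic region, was the brightest member of the B cluster in treated 5637. It read 6.68, 6.53 and 6.53 in untreated RT112, 6.81, 6.61 and 6.53 in treated RT112, and 7.64, 7.57 and 7.80 in treated 5637. The RT112 groups overlapped, and all 3 arrays of 5637 were above both.

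HOXA2, which patterns the hindbrain and the second branchial arch, was the single A-cluster member. It read 5.82, 5.69 and 5.65 in untreated RT112, 4.60, 4.83 and 4.60 in treated RT112, and 4.67, 4.76 and 4.80 in treated 5637. The treated groups overlapped each other, and untreated RT112 lay above both. HOXC13, which controls hair and nail keratin genes, was the brightest C-cluster member in every group. Its levels were 6.98, 6.72 and 6.60 in untreated RT112, 5.76, 6.27 and 6.16 in treated RT112, and 5.57, 5.16 and 5.76 in treated 5637. The treated groups met at 5.76, and untreated RT112 lay above both.

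HOXD11, which patterns the forearm and takes part in kidney development, and HOXD10, a gene of the lumbar spinal cord and hindlimb, were the brightest D-cluster members. HOXD11 read 6.13, 6.09 and 6.05 in untreated RT112, 5.94, 6.10 and 6.13 in treated RT112, and 7.30, 7.31 and 7.24 in treated 5637. HOXD10 read 6.02, 6.07 and 5.97 in untreated RT112, 5.09, 4.92 and 5.74 in treated RT112, and 7.73, 7.39 and 7.79 in treated 5637. For both genes every 5637 array was more than 1 log2 unit above every RT112 array. The 2 genes are neighbours, and the 300 bases around their annotated starts are shown because these members have the largest differences between the lines. The windows run from 250 bases before the start to 50 from it, on the plus strand of chromosome 2 (RefSeq, GRCh38.p14), at chr2:176116528-176116827 for HOXD10 and chr2:176107030-176107329 for HOXD11. Capitals mark CG dinucleotides, the sites of DNA methylation.
HOXD10: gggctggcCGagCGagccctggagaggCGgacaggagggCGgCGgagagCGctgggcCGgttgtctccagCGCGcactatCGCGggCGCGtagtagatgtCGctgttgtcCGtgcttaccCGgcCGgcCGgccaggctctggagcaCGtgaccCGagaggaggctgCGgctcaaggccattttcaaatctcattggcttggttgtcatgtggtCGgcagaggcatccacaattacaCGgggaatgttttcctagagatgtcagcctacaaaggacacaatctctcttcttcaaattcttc
HOXD11: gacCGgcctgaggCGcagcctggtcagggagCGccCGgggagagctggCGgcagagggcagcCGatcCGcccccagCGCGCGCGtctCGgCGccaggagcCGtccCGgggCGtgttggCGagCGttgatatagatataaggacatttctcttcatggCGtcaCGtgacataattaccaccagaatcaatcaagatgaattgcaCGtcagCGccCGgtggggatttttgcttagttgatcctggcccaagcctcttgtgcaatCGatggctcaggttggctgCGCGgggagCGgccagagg

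The HOXD10 window holds 23 CG dinucleotides and that of HOXD11 27, against a median of 14 over 35116 promoter windows of the same length. The sequence table had windows for 10 of the 25 members, of which 9 were distinct because HOXC4 and HOXC5 share an annotated start. Their CG counts ran from 11 in HOXA2 and HOXB1 to 36 in HOXD1, with a median of 21, which 39.5% of all windows reached. Methylation was not measured on these arrays. Motifs chosen after the sequences were read were searched on both strands. CACGTG, the E-box, was in the windows of HOXD1, HOXD10, HOXD11 and HOXD13, 4 of the 9, and in 7.26% of all windows. TGATNNAT, a form of the joint PBX and HOX site, was in 3 (HOXA2, HOXB1 and HOXD11) and in 7.4% of all windows, and TATAAA was in that of HOXD13 and in 11.5% of all windows.

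Treated against untreated RT112 asked how the compound changes expression in that line. On the deposited values 23 of the 25 members were called lower with CM272 and 0 higher, where limma called 74.2% of all genes lower and 10.8% higher. The median difference of the members was −0.65 on the log2 scale, beside −0.57 for all genes. With arrays centred on their medians, 8 members were higher and 7 lower, beside 40.0% and 27.8% of all genes, and the members' median was 0.0021 beside 0.08. The members' shift therefore went with that of the whole array. Changes in RT112 are given below on the deposited scale, with the change after centring beside most of them.

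HOXB6, HOXB8, HOXC6, HOXC8, HOXD8, HOXD9 and HOXA2 were lower in treated RT112 on the deposited, the centred and the quantile-normalized values. These are 7 of 25 members, where the same criterion takes 27.8% of all genes, so the count is that of the background. No member was higher in all 3 scalings, beside 10.8% of all genes. None passed the further requirement of a log2 difference of at least 1 on both the deposited and the centred scale, which 2.86% of all genes passed as higher and 2.63% as lower.

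The size of these falls depended on the scale. HOXB6, a gene of the trunk, read 6.86, 6.63 and 6.80 untreated and 5.51 in each of the 3 treated arrays, without overlap. It fell by 1.25 on the deposited scale (SE 0.09, adjusted p = 2.15e-06) and by 0.61 after centring (adjusted p = 0.000411). The 3 equal treated values give a replicate SD of 0 in that group. Equal replicates were found in 2726 of 22465 genes in treated RT112, 3440 in treated 5637 and 0 in untreated RT112. Such ties lower the measured spread on which the SEs and adjusted p rest. HOXC8, which specifies brachial motor neurons, read 4.94, 4.87 and 5.00 untreated and 3.67, 3.65 and 3.79 treated, again without overlap. It fell by 1.24 (SE 0.05, adjusted p = 1.61e-07) and by 0.59 after centring (adjusted p = 2.81e-05). HOXC6, which acts in limb motor neurons and mammary gland development, read 6.70, 6.62 and 6.69 untreated and 5.66, 5.76 and 5.73 treated. It fell by 0.96 (SE 0.06, adjusted p = 7.07e-07) and by 0.31 after centring (adjusted p = 0.0025). HOXA2 fell by 1.04 (SE 0.08, adjusted p = 2.83e-06) and by 0.39 after centring. For HOXD9, HOXB8 and HOXD8 the falls were between 0.83 and 0.97 on the deposited scale and between 0.18 and 0.32 after centring. HOXC6 and HOXB6 began above the brightest background row, and the other 5 were below it in both groups.

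By position, 5 of the 9 central members were lower in all 3 scalings (HOXB6, HOXB8, HOXC6, HOXC8 and HOXD8). The same held for 1 of the 12 posterior members (HOXD9) and 1 of the 4 anterior members (HOXA2). Of all genes 27.8% were lower by this criterion. The median deposited difference was −0.83 for central, −0.61 for posterior and −0.55 for anterior members, and −0.18, 0.03 and 0.10 after centring. The difference between position classes was not tested. By cluster the deposited medians were close, −0.64 in HOXB, −0.70 in HOXC and −0.60 in HOXD. Within a cluster, Spearman's rho between the number of a gene and its difference was 0.12 over 8 HOXB genes, −0.12 over 9 HOXC genes and 0.46 over 7 HOXD genes. These describe genes read on the same arrays.

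**Figure D2:**
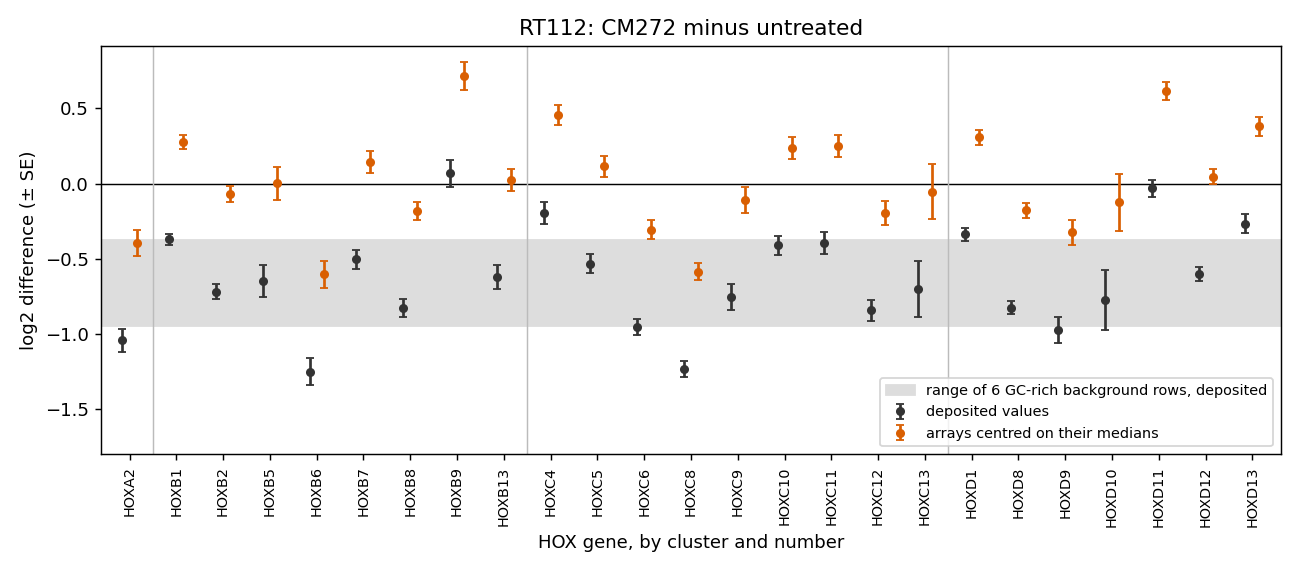
Log2 difference (vertical axis) between CM272-treated and untreated RT112 for each HOX member, by cluster and number, on deposited values (black) and with arrays centred on their medians (orange); bars are ± SE from limma, 3 arrays a group. The grey band is the range of the deposited difference over the 6 GC-rich background rows, −0.95 to −0.38. Most deposited member differences lie inside it, as does the median of all genes, −0.57.

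At the other end, HOXB9 and HOXD11 did not pass the test on the deposited values. HOXB9 differed by 0.07 ± 0.09 (SE; 95% interval −0.14 to 0.27, adjusted p = 0.493) and HOXD11 by −0.03 ± 0.06 (interval −0.16 to 0.10, adjusted p = 0.618). After centring they were higher by 0.72 (adjusted p = 0.000165) and 0.62 (adjusted p = 3.21e-05). They are thus level on one scale and higher than the bulk of genes on the other. HOXB1, HOXC4, HOXC10, HOXC11, HOXD1 and HOXD13 were lower on the deposited scale (by 0.19 to 0.41) and higher after centring (by 0.24 to 0.45). The remaining 10 members (HOXB2, HOXB5, HOXB7, HOXB13, HOXC5, HOXC9, HOXC12, HOXC13, HOXD10 and HOXD12) were called lower on the deposited values alone or, for HOXC12, also after quantile normalization. Of the 23 lower calls, that of HOXC4 had the highest adjusted p, 0.0356, for a difference of −0.19. Without treated replicate 2 the difference was −0.13 (adjusted p = 0.119), and without untreated replicate 1, 2 or 3 the adjusted p was 0.0543, 0.0864 or 0.0839.

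Background rows of the array moved in the same direction. All 23 rows of background probes, grouped by the number of G and C bases they hold, had lower means in treated than in untreated RT112, by 0.04 to 0.95, and 18 did so without overlap. In the 6 rows of 20 to 25 G and C bases the median difference was −0.70. Of the 7 members lower in all 3 scalings, HOXB8 and HOXD8 (both −0.83) fell within the range of these GC-rich rows. HOXC6 (−0.96, SE 0.06) and HOXD9 (−0.97, SE 0.09) were close to the lowest of them, −0.95. HOXA2 (−1.04, SE 0.08), HOXB6 and HOXC8 fell by more. The 92 spike-in control rows (ERCC) also had lower medians, 3.56 on the treated arrays against 3.92 to 4.04 on the untreated ones. With arrays centred on these rows, an alternative chosen after seeing the data, 11 members were called lower and 3 higher. The 7 named above were among the lower (−0.40 to −0.83). The share of all genes called on that scale was not computed, so these counts have no background beside them. The part of these shifts in the HOX differences was not tested. Treated RT112 and treated 5637 arrays shared exactly equal values in 9 members, and treated and untreated RT112 arrays in 0, so treatment and any difference in array processing cannot be told apart.

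**Figure D3:**
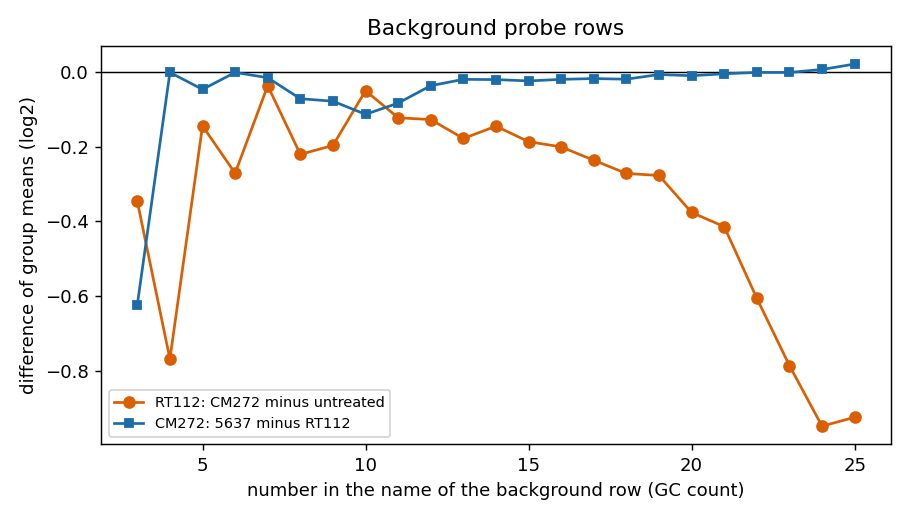
Difference of group means (log2, vertical axis) of the 23 background probe rows against the number of G and C bases in their name (horizontal axis). Circles are treated minus untreated RT112 and squares are treated 5637 minus treated RT112 (3 arrays a group); the RT112 differences reach −0.95 at the GC-rich end, where those between the lines stay between −0.01 and 0.02.

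Treated 5637 against treated RT112 asked how the lines differ under the compound. Both groups were treated, and the median difference of all genes was −0.01. The 23 background rows differed by −0.62 to 0.02, and the GC-rich ones by −0.01 to 0.02. Some GC-rich rows held the same value on every treated array, 3.49 for 22 G and C bases and 3.67 for 23. Their small differences therefore do not show that the arrays of the lines are comparable. Without untreated 5637, a difference present before treatment and one that arose with it cannot be told apart. On the deposited values 5 members were higher and 4 lower in 5637, beside 17.1% and 15.8% of all genes. After centring 6 were higher and 3 lower, beside 18.8% and 13.5%. In all 3 scalings 5 were higher (HOXB6, HOXB9, HOXD1, HOXD10 and HOXD11) and 3 lower (HOXC5, HOXC6 and HOXC11), beside 16.2% and 13.5% of all genes. The counts are near the background, and the sizes set 3 members apart.

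HOXD10, HOXD11 and HOXB9 were higher in 5637 by at least 1 on both the deposited and the centred log2 scale, a size that 4.12% of all genes reached as higher and 2.66% as lower. All 3 carry posterior numbers, and the array values given above show no overlap. HOXD10 averaged 7.64 ± 0.22 (SD, n = 3) in 5637 and 5.25 ± 0.43 in RT112, a difference of 2.39 ± 0.20 (SE; 95% interval 1.93 to 2.85, adjusted p = 3.06e-05). Its RT112 level lay below the brightest background row of that group, 5.90. Replicate 3 of treated RT112, at 5.74, was the highest of its group, and without it the difference was 2.63. HOXD11 averaged 7.28 ± 0.04 and 6.06 ± 0.11, a difference of 1.23 ± 0.06 (interval 1.09 to 1.36, adjusted p = 1.14e-06). HOXB9 averaged 7.67 ± 0.12 and 6.65 ± 0.15, a difference of 1.02 ± 0.09 (interval 0.81 to 1.22, adjusted p = 4.01e-05). Both were above the brightest background row in each line.

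The rest of the D cluster did not follow these 2 genes evenly. HOXD9, which lies beside HOXD10, differed by 0.24 ± 0.09 and missed the threshold on the deposited values (adjusted p = 0.0661), while it was called higher after centring (0.29, adjusted p = 0.0283) and without treated RT112 replicate 1 (0.35, adjusted p = 0.00235). HOXD8, HOXD12 and HOXD13 differed by −0.02 to 0.10, with adjusted p between 0.31 and 0.95. Their 95% intervals together ran from −0.13 to 0.24. All lay below the brightest background row in both lines, where a difference may be understated. On the measured scale these intervals lie below the difference of HOXD11, 1.23. They do not cover understatement near background, so a transcript difference of that size is not excluded. HOXD13 specifies digits and HOXD12 acts in the distal limb. HOXD1, at the anterior end, read 4.26, 4.18 and 4.27 in 5637 and 3.88, 3.85 and 3.82 in RT112, and was higher by 0.39 ± 0.05 (adjusted p = 0.000204). Its groups did not overlap, though both lay below the brightest background row.

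In the B cluster, HOXB6 was higher in 5637 by 0.43 ± 0.09 (adjusted p = 0.00545), from 5.51 on all 3 RT112 arrays to 6.12, 5.90 and 5.80. HOXB5, HOXB7, HOXB8 and HOXB13 differed by 0.10 to 0.20, with adjusted p between 0.0951 and 0.402. HOXB5 was called higher once treated RT112 replicate 1 was left out (0.31, adjusted p = 0.0353). HOXB1, a hindbrain gene, and HOXB2 differed by 0.01 and −0.06. The largest differences of the cluster were thus in HOXB9 and HOXB6, which are not adjacent: HOXB7 and HOXB8 lie between them.

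All 9 C-cluster members had lower means in 5637 on the deposited scale, though HOXC4 differed by −0.01 there and by 0.04 after centring, and 3 of them passed the test in all 3 scalings. HOXC6 fell from 5.72 ± 0.05 in RT112 to 5.17 ± 0.09 in 5637, a difference of −0.54 ± 0.06 (adjusted p = 9.79e-05). HOXC11 differed by −0.32 ± 0.07 (adjusted p = 0.00827) and HOXC5 by −0.30 ± 0.06 (adjusted p = 0.00579). All 6 of these group means were below the brightest background row of their group. HOXC13 differed by −0.57 ± 0.19 and was called on the deposited values with an adjusted p of 0.047, and missed the threshold after centring (adjusted p = 0.0606). Without 1 of the 5637 replicates 1 or 2 or of the treated RT112 replicates 2 or 3, its adjusted p was between 0.0849 and 0.144. HOXC4, HOXC8, HOXC9, HOXC10 and HOXC12 differed by −0.15 to −0.01, with adjusted p between 0.124 and 0.996. HOXC10 had the same value, 4.30, on all 3 arrays of 5637. HOXC4 and HOXC5 share an annotated start, and a further row names HOXC4, HOXC5 and HOXC6 together, with means of 5.47 in untreated RT112, 4.38 in treated RT112 and 4.24 in treated 5637, so signal cannot be assigned to one of them with certainty.

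**Figure D4:**
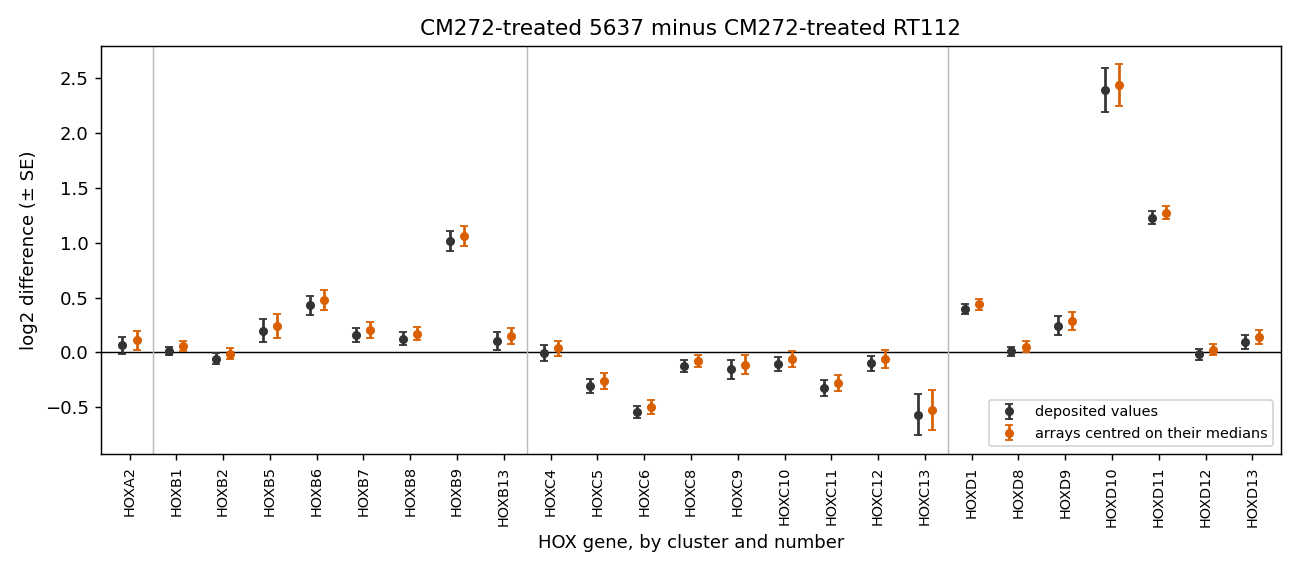
Log2 difference (vertical axis) between CM272-treated 5637 and CM272-treated RT112 for each HOX member, by cluster and number, on deposited values (black) and with arrays centred on their medians (orange); bars are ± SE from limma, 3 arrays a group. HOXD10, HOXD11 and HOXB9 lie above 1 on both scales, and all 9 HOXC genes have deposited differences below 0, while HOXC4 lies above 0 after centring.

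By cluster, the median difference between the lines was 0.14 in HOXB, −0.15 in HOXC and 0.24 in HOXD, beside −0.01 for all genes. Spearman's rho between the number of a gene and its difference was 0.40 over 8 HOXB genes, −0.28 over 9 HOXC genes and −0.21 over 7 HOXD genes. Position classes had medians of 0.04 (anterior), 0.01 (central) and 0.04 (posterior). HOXA2 differed by 0.06 ± 0.08 (adjusted p = 0.627). The 2 comparisons share the treated RT112 arrays, so their values are given side by side only. In HOXB6 the difference was −1.25 between treated and untreated RT112 and 0.43 between the lines, and in HOXC6 it was −0.96 and −0.54.

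A further list held 19 measured genes of the clusters, noncoding RNA genes and the protein-coding PRAC1. Of these, 2 were lower in treated RT112 in all 3 scalings and 0 higher, beside 27.8% and 10.8% of all genes. Their median deposited difference was −0.41. HOXB-AS2, an antisense transcript of the B cluster, went from 4.58 ± 0.12 to 3.03 ± 0.19, a fall of 1.55 (SE 0.10, adjusted p = 1e-06). MIR615, a microRNA gene of the C cluster, went from 4.74 ± 0.19 to 3.66 ± 0.08, a fall of 1.08 (SE 0.09, adjusted p = 7.62e-06). The centred differences were −0.90 for HOXB-AS2 and −0.43 for MIR615, and both genes started below the brightest background row. Between the lines 3 were higher in 5637 and 1 lower, beside 16.2% and 13.5% of all genes, with a median of 0.01. HAGLR, a long noncoding RNA of the D cluster, was higher by 0.84 ± 0.08 (adjusted p = 4.37e-05) over 6.16 ± 0.16 in RT112, and HOXA11-AS by 0.68 ± 0.08 (adjusted p = 0.000296). HOXC13-AS was lower by 0.68 (adjusted p = 0.000729), beside −0.57 for HOXC13 itself. MIR196A1, which lies in the B cluster near HOXB9, was higher by 0.85 ± 0.24 (6.83 against 5.98, adjusted p = 0.0251), beside 1.02 for HOXB9, while MIR196A2 in the C cluster differed by −0.21 ± 0.16 and was not called.

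The mature microRNAs of these genes are shown because miR-196 is encoded within the HOX clusters and is known to cleave HOXB8 mRNA. Capitals mark the seed, bases 2 to 8, which pairs with targets (RefSeq, GRCh38.p14). MIR196A1 at chr17:48632532-48632553 on the minus strand and MIR196A2 at chr12:53991762-53991783 on the plus strand give the same mature sequence.
hsa-miR-196a-5p: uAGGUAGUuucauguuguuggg
hsa-miR-196b-5p: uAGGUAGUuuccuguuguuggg
hsa-miR-615-3p: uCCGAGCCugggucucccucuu
miR-196a and miR-196b, from the A cluster at chr7:27169528-27169549 on the minus strand, share the seed and differ at 1 base. The seed of miR-615-3p, at chr12:54034010-54034031 on the plus strand, is another one. An array row that carries the symbol of a microRNA gene does not separate the precursor from the mature form. HOXB8, the miR-196 target, differed between the lines by 0.13 ± 0.06 (interval −0.01 to 0.26, adjusted p = 0.152).

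Of the 8 nearest measured neighbours of the clusters, 1 was higher and 2 lower in treated RT112 in all 3 scalings, beside 10.8% and 27.8% of all genes, with a median deposited difference of −0.70. CALCOCO1, a nearest measured neighbour of the C cluster that encodes a coiled-coil coactivator, rose in treated RT112 from 6.20 to 7.96, by 1.76 ± 0.05 (adjusted p = 5.91e-08), and by 2.41 after centring. SKAP1 beside the B cluster fell by 0.80 and FLJ12825, on the other side of the C cluster, fell by 0.90. Their centred differences were −0.15 and −0.25. Between the lines 1 of 8 was called, CALCOCO1 with a difference of 0.23 ± 0.05 (adjusted p = 0.0116).

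Among the chromatin regulators known to act on HOX clusters, 4 of 17 Polycomb genes were higher and 3 lower in treated RT112 in all 3 scalings, beside 10.8% and 27.8% of all genes. EZH2, the catalytic subunit of Polycomb repressive complex 2, rose by 1.33 ± 0.06 (adjusted p = 1.89e-07), and SUZ12, a core subunit of the same complex, fell by 1.16 (SE 0.10, adjusted p = 6.16e-06). The Polycomb chromodomain genes CBX2 and CBX6 fell by 0.86 and 1.17. Centred differences were 1.98 for EZH2, −0.51 for SUZ12, −0.21 for CBX2 and −0.52 for CBX6. Of 11 MLL and trithorax-group genes 3 were higher and 1 lower, beside the same shares of all genes. PSIP1, whose product tethers MLL and menin to chromatin, rose by 0.61, RBBP5, a core subunit of MLL complexes, by 0.59, and KDM6A, which removes methyl groups from lysine 27 of histone H3, by 0.39. WDR5, another core subunit, fell by 1.58 (SE 0.18, adjusted p = 4.21e-05). Centred differences were 1.26 for PSIP1, 1.24 for RBBP5, 1.04 for KDM6A and −0.93 for WDR5. Median deposited differences of these lists were −0.20 for Polycomb and −0.21 for MLL genes, beside −0.57 for all genes.

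Between the lines 8 of 17 Polycomb genes were higher in 5637 and 5 lower in all 3 scalings, beside 16.2% and 13.5% of all genes, with a median deposited difference of 0.11. The smallest adjusted p was that of MTF2, which helps to recruit Polycomb repressive complex 2 and was higher in 5637 (8.59 against 7.09, adjusted p = 3.42e-07). EZH1, the second catalytic subunit, was higher by 0.62, and PHF1 and RBBP7 were lower by 0.40 and 0.77. Of the 11 genes of the MLL list 5 were higher and 3 lower, beside the same shares, with a median of 0.15. PSIP1 was higher by 2.09 ± 0.07 (adjusted p = 1.47e-07), KMT2B by 0.69 and MEN1, which encodes menin, by 0.78. KDM6A was lower by 0.88 (SE 0.07, adjusted p = 1.66e-05).

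Of 8 measured TALE cofactors, 1 was higher and 3 lower in treated RT112 in all 3 scalings, near the 10.8% and 27.8% of all genes, and their median deposited difference was −0.42. PBX2, PBX4 and PKNOX2 fell by 1.22, 0.85 and 1.11, and PKNOX1 rose by 0.38 ± 0.04 (adjusted p = 2.25e-05). Their centred differences were −0.57, −0.20, −0.46 and 1.02. Between the lines 2 were higher and 2 lower, beside 16.2% and 13.5% of all genes, with a median of −0.06. PBX3 was higher in 5637 by 1.40 ± 0.10 (8.10 against 6.69, adjusted p = 1.24e-05) and MEIS1 by 0.48. PKNOX1 was lower by 1.07 and PBX2 by 0.36.

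Of 16 retinoic acid pathway genes, 4 were higher and 5 lower in treated RT112 in all 3 scalings, beside 10.8% and 27.8% of all genes, and their median deposited difference was −0.54. CRABP2, which carries retinoic acid to its nuclear receptor, rose by 2.35 ± 0.08 (adjusted p = 7.1e-08). The receptor genes RXRA and RARG fell by 1.53 and 1.24, and CYP26C1, which encodes an enzyme that breaks retinoic acid down, fell by 1.25. Centred differences were 3.00 for CRABP2, −0.88 for RXRA, −0.59 for RARG and −0.61 for CYP26C1. Between the lines 2 were higher and 5 lower, beside 16.2% and 13.5% of all genes, with a median of −0.04. CRABP2 was higher in 5637 by 3.10 ± 0.08 (adjusted p = 5.25e-08), and ALDH1A1, an enzyme that makes retinoic acid, STRA6, a retinol transporter, and ALDH1A3 differed by −2.01, −1.24 and 0.90. Among 19 other homeobox genes 2 were higher and 6 lower in treated RT112 in all 3 scalings, beside the same 10.8% and 27.8%, with a median of −0.51. GSX1, EVX1, GSX2 and GBX2 fell by 0.79 to 1.37, and their centred differences were −0.72, −0.27, −0.14 and −0.27. Between the lines 6 were higher and 1 lower, beside 16.2% and 13.5%. DLX1, DLX2 and DLX6 were higher in 5637 by 0.37 to 0.88, and DLX3 was lower by 0.81. The DLX genes lie outside the HOX clusters and act in craniofacial and limb development.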

How the data were processed

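Biotin-labelled total RNA was read on Affymetrix whole-transcript arrays. The deposited table holds log2 values, for which the submitters' processing notes name RMA and Affymetrix Expression Console. Their versions and the genome build are not given in the sources used here. Of its 70523 rows, 67528 are transcript clusters. GEO's platform annotation gave 1 symbol to 23781 rows and several to 1543, and 22167 of the 22465 genes had their symbol in RefSeq (GRCh38.p14). The brightest row stood for each of the 479 genes with more than 1. The number of arrays, 3 a group, limits the precision.

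Differences were fitted in R 4.3.3 by limma 3.58.1 (lmFit, then eBayes, with 9 arrays of 3 groups, 6 residual degrees of freedom, Benjamini-Hochberg over all genes, adjusted p threshold 0.05), on the deposited values, on arrays centred on their medians and after quantile normalization. The procedure was tested on simulated data. Members and lists were chosen with earlier results of these data known. Values on every array are given for the brightest member of each cluster in each group and for members called in all 3 scalings with a log2 difference of at least 1. Further members with array values (HOXB6, HOXC6, HOXC8 and HOXD1), KRT13 and MIR196A2 were chosen after their values were seen. From other lists, up to 4 genes with the smallest adjusted p are named. Same-numbered replicates deviated together at r between −0.09 and 0.04, and differently numbered ones between −0.12 and 0.12. The main fit used no pairing, and whether the numbers pair the samples cannot be told from this. Tables and figures were made with pandas 2.3.3 and matplotlib 3.10.9.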

Additional observations from a re-analysis of the deposited data

How the results depend on the processing

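The RT112 result depends on the scale. With arrays centred on their medians 8 members were higher and 7 lower, beside 40.0% and 27.8% of all genes, and the median difference was 0.0021. Quantile normalization gave 8, 8 and −0.071, beside 32.9% of all genes higher and 35.1% lower. Centring on the ERCC rows, an alternative chosen after seeing the data, gave 3, 11 and −0.22. For either comparison the share of all genes called on the ERCC scale was not computed. Only 8 of the 25 members were among the genes above the median level, and 6 of these 8 were lower. The share of all genes called in that setting was not computed for either comparison. Signs turned after centring in HOXB1 (0.28), HOXB5 (0.0021), HOXB7 (0.14), HOXB13 (0.024), HOXC4 (0.45), HOXC5 (0.12), HOXC10 (0.24), HOXC11 (0.25), HOXD1 (0.31), HOXD11 (0.62), HOXD12 (0.045) and HOXD13 (0.38). After quantile normalization they turned in HOXB1 (0.13), HOXC4 (0.46), HOXC5 (0.092), HOXC10 (0.23), HOXC11 (0.20), HOXD1 (0.25), HOXD11 (0.56) and HOXD13 (0.35), and on the ERCC rows in HOXB1 (0.055), HOXC4 (0.23), HOXC10 (0.014), HOXC11 (0.028), HOXD1 (0.086), HOXD11 (0.39) and HOXD13 (0.16). Both centrings add the same amount to every gene of an array, and quantile normalization adds an amount that depends on the level. Leaving out 1 replicate gave 0 higher, 22 to 23 lower and medians of −0.70 to −0.61. Between the lines, centring on the ERCC rows gave 8 higher, 2 lower and a median of 0.11. Among genes above the median level 2 of the 8 members kept were lower, and the median over these 8 was 0.31. Leaving out 1 replicate gave 5 to 7 higher, 3 to 4 lower and medians of 0.011 to 0.057. With the replicate number as a block, 0 members were higher and 23 lower in RT112, and 6 higher and 4 lower between the lines. Fitting the 2 groups alone, eBayes with trend and leaving out genes with equal replicates kept each count within 1.5 times. Leaving out such genes dropped HOXB6 from both comparisons and HOXC10 from that between the lines, so it does not check them. Each member had 1 row, so taking the dimmest row of a gene could not change the members' values. HOXD10, HOXD11 and HOXB9 were called higher in 5637 under every alternative run. Signal over background limits most members where the brightest background row is the measure: 5 of 25 stood above it in untreated RT112 and 4 in treated RT112. Above the highest GC-rich row stood 15 and 16.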
